A study of Homo sapiens with 12 samples.

Results

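The 10 genes described here encode enzymes and regulators of gluconeogenesis and parts of the insulin signal of liver cells: PCK1, FBP1, PPARGC1A, FOXO1, FOXO3, INSR, IRS1, IRS2, SOCS2 and SOCS3. They were taken by gene symbol from a table of 16705 genes, and all 10 were found in it once. RNA was measured in 12 libraries of liver spheroids in which 2 human cell lines grew together. One was HepG2/C3A, a clone of the HepG2 hepatoma line with hepatocyte features, and the other was LX-2, a line derived from hepatic stellate cells. The 4 groups, with 3 libraries each, were untreated spheroids at 24 h, spheroids exposed to 1% TPN for 24 h, untreated spheroids at 144 h, and spheroids exposed to 1% TPN for 144 h. TPN, total parenteral nutrition, was a commercial infusion mixture that supplied glucose, lipids, amino acids, electrolytes, vitamins and trace elements. Both lines are tumor-derived or immortalized, spheroids were pooled for each library, and the 2 cell types were not separated before RNA extraction.

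In the fasted liver, glucagon acts through cAMP and the CREB factor, and the coactivator PGC-1α together with FOXO factors raises the genes of gluconeogenesis, which makes glucose from lactate, glycerol and amino acids. After a meal, insulin binds its receptor, the receptor phosphorylates the docking proteins IRS1 and IRS2, and the kinase AKT then phosphorylates FOXO1, which leaves the nucleus. SOCS proteins are made in response to cytokines and growth hormone and dampen the JAK-STAT signal, and SOCS3 can also act on the insulin receptor and the IRS proteins.

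Values are FPKM, in which a gene's fragments are divided by its transcript length and by the size of the library, so that levels can be set side by side between genes. FPKM summed to between 561657 and 583722 in a library, and the steps between low values gave an estimated depth of about 1.86e+07 fragments per library. Hepatocyte markers were abundant, and their summed FPKM ranged from 10317 to 14225 over the 12 libraries. Stellate or mesenchymal markers summed to between 184 and 239. The 5 endothelial markers summed to at most 0.53. The study describes its RNA sequencing as drawn from independent experiments, and the labels do not tie a library to an experiment.

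By level per transcript length, INSR was the highest of the 10 genes in untreated spheroids at 24 h, with 9.60 ± 0.188 FPKM (SD, n = 3). FOXO3, FOXO1, IRS1 and PPARGC1A followed with means between 5.01 and 6.53. PCK1 had 1.24 ± 0.125 and SOCS3 had 0.723 ± 0.146. FBP1, SOCS2 and IRS2 were near the bottom of the measurable range, and their means over the 12 libraries were 0.202, 0.38 and 0.02 FPKM. These 3 genes lay under the minimum mean of 0.5 FPKM that a gene needed for the test across all genes, so 7 of the 10 genes were among the 11713 tested. For those 7 genes, log2(FPKM + 0.1) was compared in a single limma model of the 4 groups, with Benjamini-Hochberg adjustment over all genes tested. The added 0.1 understates the fold change of genes with low FPKM. A gene was called at an adjusted p below 0.05, and a larger call also needed an absolute log2 fold change above 0.58.

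**Figure D1:**
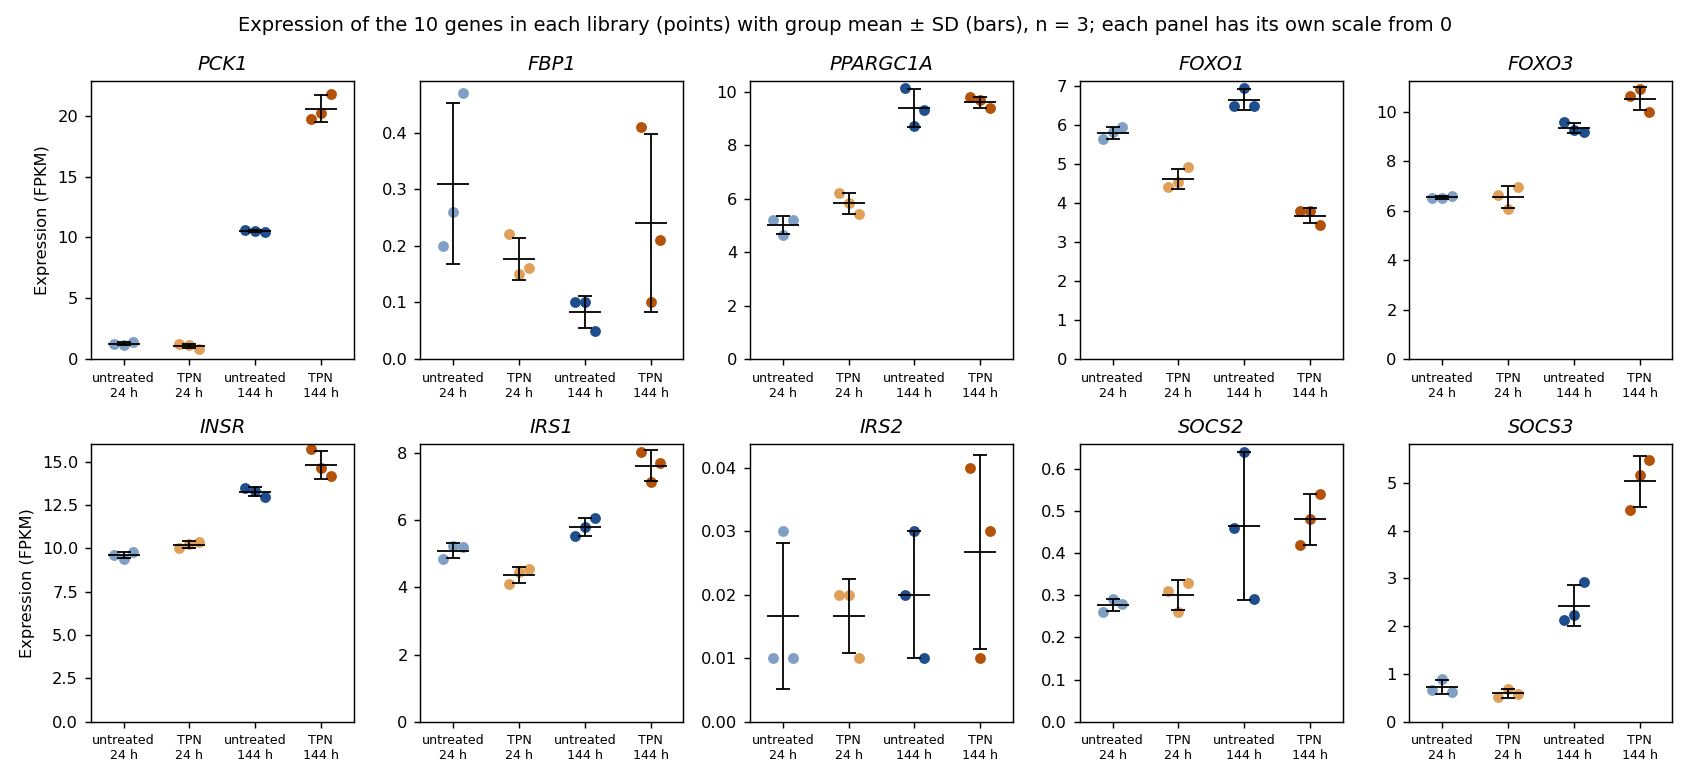
Expression of the 10 genes (vertical axis, FPKM, from 0 on a separate scale for each gene) in the 4 groups. Points are libraries, and the bars give the mean ± SD of 3 libraries. PCK1 and SOCS3 were highest in the TPN 144 h group and FOXO1 was lowest there, while the points of FBP1, IRS2 and SOCS2 stayed below 1 FPKM.

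PCK1 (gene 5105, chr20:57561110-57568121, GRCh38.p13) encodes the cytosolic phosphoenolpyruvate carboxykinase, which makes phosphoenolpyruvate from oxaloacetate. Its level was 1.24, 1.12 and 1.37 FPKM in the untreated libraries at 24 h and 1.21, 1.17 and 0.86 in the exposed ones. By 144 h the level was 10.62, 10.52 and 10.47 in untreated spheroids and 19.76, 20.19 and 21.80 after TPN. The groups overlapped at 24 h and were far apart at 144 h, where the lowest exposed library stood well above the highest untreated one. The log2 fold change of TPN was -0.20 (SE 0.105) at 24 h, which was not called (limma, adjusted p = 0.284, 95% interval -0.42 to 0.03) and ran from -0.28 to -0.054 with a library left out, nearest to 0 without the third exposed library. At 144 h the log2 fold change was 0.96 (SE 0.105), a 1.94-fold rise (adjusted p = 4.81e-06). The effects at the 2 times differed by 1.15 on the log2 scale (SE 0.148, adjusted p = 8.04e-05). In bulk RNA such as this, a change in the share of a cell type and a change in RNA per cell cannot be told apart.

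Within untreated spheroids PCK1 was 7.94-fold higher at 144 h than at 24 h, a log2 difference of 2.99 (SE 0.105, limma adjusted p = 2.89e-11). Its order was therefore TPN 144 h, then untreated 144 h, then both 24 h groups, which did not differ beyond their spread. PCK2 encodes the mitochondrial form of the same enzyme. It had 61.5 ± 1.95 FPKM in untreated spheroids at 24 h and 61.1 ± 2.67 after TPN, then 55.6 ± 0.816 and 43.8 ± 2.15 at 144 h. It fell by 0.34 on the log2 scale after 144 h of TPN (adjusted p = 1.13e-05).

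The cytosolic form was thus measured at 0.0202 times the level of the mitochondrial form in untreated spheroids at 24 h, at 0.189 times in untreated spheroids at 144 h and at 0.470 times after 144 h of TPN, as means of 3 libraries. The log2 ratio of PCK1 to PCK2 was 1.30 higher in exposed than in untreated spheroids at 144 h and did not overlap between them (exact permutation test, two-sided, p = 0.1). That is the smallest p that the 20 arrangements of 3 against 3 libraries allow, so no ratio given here could reach 0.05. At 24 h the same ratio differed by -0.19 (exact p = 0.2).

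FBP1 (gene 2203, chr9:94603133-94646107) encodes fructose-1,6-bisphosphatase, a committed step of gluconeogenesis. Its level was 0.20, 0.26 and 0.47 FPKM in untreated and 0.22, 0.15 and 0.16 in exposed libraries at 24 h. At 144 h it was 0.10, 0.10 and 0.05 in untreated and 0.41, 0.10 and 0.21 in exposed libraries. A step of 0.0525 FPKM, chosen to fit these same values, left each within 0.01 FPKM of a whole multiple, between 1 and 9 steps. By the estimated depth, 1 fragment on the FBP1 transcript stood for about 0.0441 FPKM, and the values for 1.13 to 10.7 estimated fragments. Either way they stand for a handful of fragments each. Untreated and exposed groups overlapped at both times (exact permutation tests, two-sided, p = 0.2 at 24 h and p = 0.3 at 144 h). The untreated groups at 24 h and 144 h did not overlap, with the lower values at 144 h (exact p = 0.1). A TPN difference in FBP1 was not detectable at this depth, and no fold change is given. In a limma model without the minimum level, FBP1 was called lower over time (adjusted p = 0.00940) and not called after TPN (0.430 at 24 h and 0.0672 at 144 h).

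G6PC1, the catalytic subunit of glucose-6-phosphatase that releases free glucose, fell at 144 h where PCK1 rose. It had 0.473 ± 0.142 FPKM without and 0.647 ± 0.0907 with 24 h of TPN, against 2.02 ± 0.131 and 1.44 ± 0.231 at 144 h. It fell by 0.47 on the log2 scale after 144 h of TPN (limma, adjusted p = 0.0425) and rose by 1.92 with time in untreated spheroids (adjusted p = 4.13e-07). The call at 144 h is close to the threshold, and it was not checked with a library left out. At 24 h the log2 fold change of G6PC1 was 0.41, which was not called (limma, adjusted p = 0.187). SLC37A4, which carries glucose 6-phosphate into the endoplasmic reticulum for that step, fell from 27.9 ± 0.495 to 17.1 ± 0.5 FPKM, a log2 fold change of -0.71 (adjusted p = 2.11e-09). MPC1, a subunit of the mitochondrial pyruvate carrier, fell from 66.4 ± 1.88 to 39.8 ± 2.74 (log2 fold change -0.74, adjusted p = 6.55e-08). PC, pyruvate carboxylase, which makes the oxaloacetate that PCK1 uses, rose from 33.6 ± 1.07 to 51.2 ± 1.45 (log2 fold change 0.60, adjusted p = 1.05e-08). Of the 23 tested genes in a list of gluconeogenesis steps without PCK1 and FBP1, 7 rose and 11 fell at 144 h, with a median log2 fold change of -0.072 against -0.018 over all genes tested. Over all 11713 genes 24.2% rose and 28.3% fell at 144 h, and every list count at that time is to be read against these shares. Those passing the larger call were PC upward and MPC1 and SLC37A4 downward. At 24 h 5 of the 23 rose and 3 fell, none by the larger call.

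**Figure D2:**
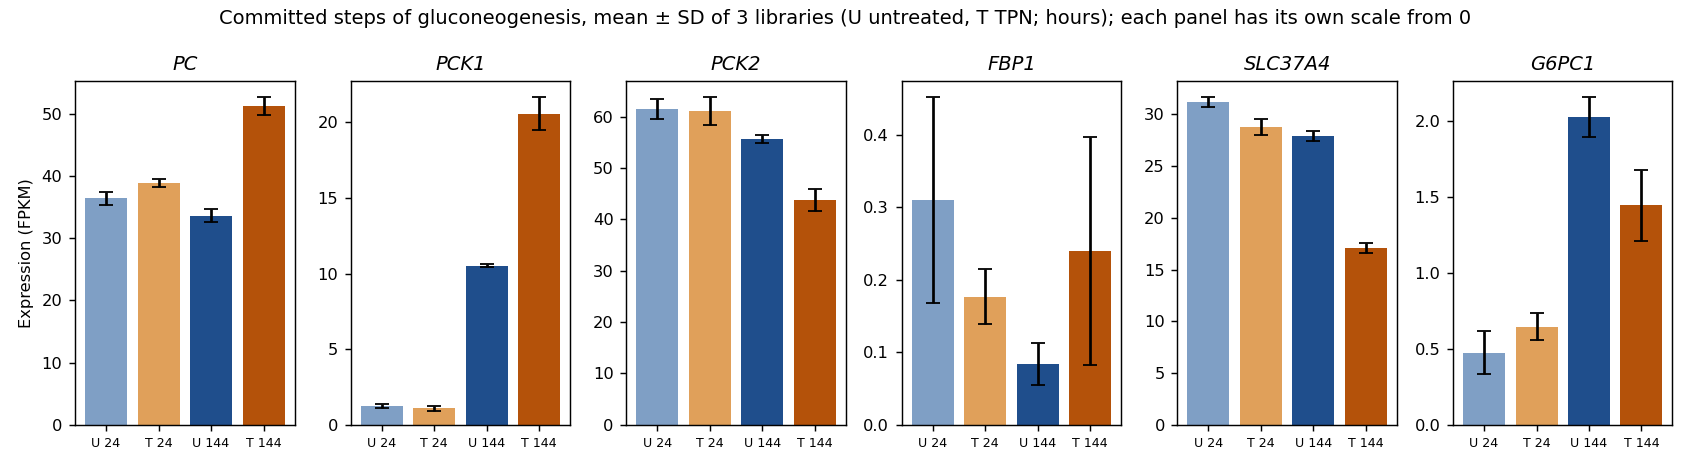
Level of 6 genes at committed steps of gluconeogenesis (vertical axis, FPKM, from 0 on a separate scale for each gene) in untreated (U) and TPN-exposed (T) spheroids at 24 and 144 h. Bars are means and error bars the SD of 3 libraries. At 144 h PC and PCK1 were higher after TPN, and PCK2, SLC37A4 and G6PC1 were lower.

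PPARGC1A (gene 10891, chr4:23792021-24524867) encodes PGC-1α, a coactivator of FOXO1 and of nuclear receptors. Its level was 5.21, 4.62 and 5.20 FPKM in untreated and 6.21, 5.84 and 5.42 in exposed libraries at 24 h. After 144 h it was 10.12, 8.70 and 9.30 in untreated and 9.78, 9.67 and 9.38 in exposed libraries. The exposed libraries at 24 h were all above the untreated ones, but the difference of 0.21 on the log2 scale (SE 0.0692) missed the threshold (limma, adjusted p = 0.0685). Without the third exposed library at 24 h it passed (adjusted p = 0.0487). At 144 h the groups overlapped, and the log2 fold change was 0.038 with a 95% interval from -0.11 to 0.19 (adjusted p = 0.668). The time in culture made the larger difference. PPARGC1A was 1.85-fold higher in untreated spheroids at 144 h than at 24 h (adjusted p = 6.62e-08), so its levels fell into a lower 24 h pair of groups and a higher 144 h pair.

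FOXO1 (gene 2308, chr13:40555667-40666641) encodes a forkhead factor that insulin keeps out of the nucleus and that raises gluconeogenic genes. Its level was 5.65, 5.83 and 5.95 FPKM in untreated and 4.42, 4.55 and 4.92 in exposed libraries at 24 h. At the later time it was 6.50, 6.96 and 6.50 in untreated and 3.79, 3.81 and 3.45 in exposed libraries. Every exposed library was below every untreated one at both times. FOXO1 fell by 0.32 on the log2 scale at 24 h (SE 0.0620, limma adjusted p = 0.00418) and by 0.84 at 144 h (SE 0.0620, adjusted p = 1.15e-07), where it stood at 0.560 times the untreated level. The fall was larger at 144 h, by a log2 difference of -0.51 (SE 0.0877, adjusted p = 6.96e-04). Of the 7 tested genes FOXO1 alone was called lower after TPN at both times.

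The 250 bases before the FOXO1 start in RefSeq (GRCh38.p14, chr13:40666642-40666891, minus strand, GC content 67.2%) are shown because FOXO1 was the only one of the 7 tested members called lower at 144 h.
FOXO1: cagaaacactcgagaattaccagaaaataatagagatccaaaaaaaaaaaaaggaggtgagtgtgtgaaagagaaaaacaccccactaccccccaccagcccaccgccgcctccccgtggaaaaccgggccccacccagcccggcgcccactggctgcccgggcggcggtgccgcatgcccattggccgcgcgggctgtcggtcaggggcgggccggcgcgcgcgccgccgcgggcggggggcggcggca
Promoter windows of 8 of the 10 genes, 13 windows in all from 250 bases before to 50 after a start, were searched on both strands for 5 short motifs. PCK1 and SOCS2 were without a window. The FOXO motif GTAAACA, the cAMP element TGACGTCA, the STAT motif TTCNNNGAA and the sterol element TCACNCCAC had no match in the 13 windows, and they occurred in 3.42%, 1.85%, 7.66% and 1.13% of all 35116 promoter windows. The antioxidant response core TGACNNNGC matched in 4 of the 13 windows, those of IRS1, IRS2, PPARGC1A and FOXO3, and in 13.3% of all windows.

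FOXO3 (gene 2309, chr6:108559825-108687783) encodes the related forkhead factor. Its level was 6.49, 6.51 and 6.59 FPKM in untreated and 6.61, 6.07 and 6.95 in exposed libraries at 24 h. The 144 h values were 9.56, 9.24 and 9.19 in untreated and 10.63, 10.92 and 10.00 in exposed libraries. The groups overlapped at 24 h (adjusted p = 0.994, 95% interval of the log2 fold change -0.12 to 0.12). At 144 h all 3 exposed libraries were above the untreated ones, and FOXO3 rose by 0.17 on the log2 scale (SE 0.0545, limma adjusted p = 0.0179). This call was lost without the third untreated library (adjusted p = 0.0534), the first exposed library (0.0513) or the second exposed library (0.0723) of 144 h. The effects at the 2 times did not differ past the threshold (difference 0.17, adjusted p = 0.115). FOXO1 and FOXO3 each have a closely related pseudogene copy in the genome, and RSEM, with which the authors made the values, assigns reads shared between copies by estimation, so these levels carry that uncertainty.

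FOXO3 stood at 1.12 ± 0.0216 times the level of FOXO1 in untreated spheroids at 24 h and at 1.41 ± 0.0807 times after 24 h of TPN. The ratio was 1.40 ± 0.0721 in untreated spheroids at 144 h and 2.86 ± 0.0476 after 144 h of TPN. Exposed and untreated libraries did not overlap at either time, with log2 differences of 0.32 at 24 h and 1.01 at 144 h (exact permutation tests, two-sided, p = 0.1 each). Both genes were read in the same library, so library scaling cancels in a ratio of their FPKM.

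**Figure D3:**
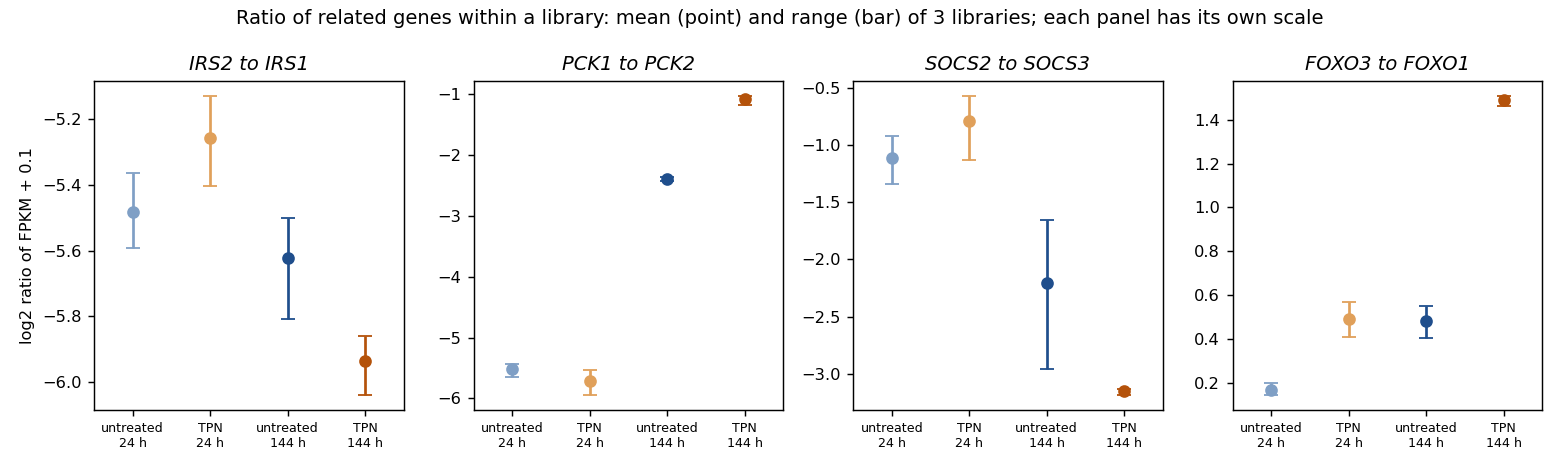
Log2 ratio of FPKM + 0.1 between related genes (vertical axis, a separate scale for each pair) in the 4 groups. Points are means of 3 libraries and bars run from the lowest to the highest library. The ratios of PCK1 to PCK2 and of FOXO3 to FOXO1 were highest after 144 h of TPN, and that of SOCS2 to SOCS3 was lowest there. In the panel of IRS2 to IRS1 the added 0.1 exceeded the IRS2 value of every library. That panel therefore mainly follows IRS1 and does not show the level of IRS2.

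Genes known to be raised by FOXO factors moved in both directions while FOXO1 fell. IGFBP1, which encodes a secreted binding protein for insulin-like growth factors, had 245 ± 19.3 FPKM without and 326 ± 11.2 with 24 h of TPN, and 719 ± 35.3 and 784 ± 9.65 at 144 h. It rose by 0.41 on the log2 scale after 24 h of TPN (limma, adjusted p = 1.15e-04) and by 0.12 after 144 h (adjusted p = 0.0493). TXNIP, a thioredoxin-interacting protein that limits glucose uptake, rose from 35.6 ± 0.540 to 69.0 ± 2.18 FPKM at 144 h (0.95 on the log2 scale, adjusted p = 6.84e-11). KLF15, a transcription factor of amino acid catabolism and gluconeogenesis, fell from 0.957 ± 0.133 to 0.317 ± 0.0751 (log2 fold change -1.35, adjusted p = 5.00e-04). PDK4, which restrains pyruvate dehydrogenase, stayed under the filter with group means of 0.0133 to 0.16 FPKM. Of 18 tested genes of this list, which also holds the relatives FOXO4 and FOXO6, 8 rose and 5 fell at 144 h (median log2 fold change 0.015 against -0.018 over all genes). At 24 h 4 rose and 0 fell by limma, where 5.04% of all genes rose and 5.46% fell.

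The cAMP and CREB list, with the coactivators and factors that act on PCK1 and PPARGC1A in the textbook pathway, had 4 genes that rose and 10 that fell of 29 tested at 144 h, 14 calls in all where 52.5% of all genes were called. CREB3L3, a liver CREB factor anchored in the endoplasmic reticulum, rose from 15.9 ± 0.603 to 32.2 ± 2.45 FPKM (log2 fold change 1.01, limma adjusted p = 3.73e-08). CEBPB, a factor of the acute-phase response, rose from 54.5 ± 1.73 to 87.9 ± 3.10 (0.69, adjusted p = 1.51e-08). CEBPA, the related factor of differentiated hepatocytes, fell from 46.1 ± 1.18 to 27.1 ± 2.15 (-0.77, adjusted p = 3.73e-08). The list's median was -0.064. GCGR, the glucagon receptor, had at most 0.03 FPKM in any library and was not tested.

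INSR (gene 3643, chr19:7112257-7294414) encodes the insulin receptor. Its level was 9.64, 9.40 and 9.77 FPKM in untreated and 10.00, 10.27 and 10.37 in exposed libraries at 24 h. By 144 h the level was 13.49, 13.29 and 12.98 in untreated and 15.71, 14.62 and 14.14 in exposed libraries. The exposed libraries were above the untreated ones at both times, by small steps. The log2 difference was 0.088 at 24 h (95% interval -0.0078 to 0.18, limma adjusted p = 0.254) and 0.16 at 144 h (SE 0.0445, adjusted p = 0.00831). The effects did not differ between times past the threshold (difference 0.071, 95% interval -0.064 to 0.21, adjusted p = 0.426). INSR was 1.38-fold higher at 144 h than at 24 h in untreated spheroids (adjusted p = 5.42e-07).

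IRS1 (gene 3667, chr2:226731312-226799820) encodes the docking protein that links the receptor to phosphoinositide 3-kinase. Its level was 4.84, 5.25 and 5.21 FPKM in untreated and 4.10, 4.45 and 4.55 in exposed libraries at 24 h. Levels at 144 h were 5.54, 5.79 and 6.06 in untreated and 8.03, 7.13 and 7.72 in exposed libraries. The exposed libraries were all lower at 24 h and all higher at 144 h. The log2 fold change was -0.22 at 24 h (SE 0.0644, limma adjusted p = 0.0451) and 0.39 at 144 h (SE 0.0644, adjusted p = 1.92e-04), a 1.31-fold rise. The effects differed by 0.61 between the times (SE 0.0911, adjusted p = 2.60e-04). That test shows that the effects differed, not that their signs were opposite, and the fall at 24 h rests on a call close to the threshold. That call was lost in 10 of 22 alternatives. It was lost with no filter (adjusted p = 0.0685), with a replicate block (0.0501) and with only the 2 groups fitted (0.0706), and also when the second or the third untreated library at 24 h (adjusted p = 0.139 and 0.131), any of the exposed libraries at 24 h (0.163, 0.0788 and 0.0559), the second untreated library at 144 h (0.0568) or the third exposed library at 144 h (0.0547) was left out.

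IRS2 (gene 8660, chr13:109752695-109788565) encodes the second docking protein, which carries much of the insulin signal in liver. Its level was 0.01, 0.03 and 0.01 FPKM in untreated and 0.02, 0.02 and 0.01 in exposed libraries at 24 h. At 144 h it was 0.02, 0.03 and 0.01 in untreated and 0.04, 0.01 and 0.03 in exposed libraries. All 12 libraries were near the bottom of the scale, about 1.47 to 5.86 estimated fragments on its transcript, and the groups overlapped (exact permutation tests, two-sided, p = 1 at 24 h and p = 0.8 at 144 h). A change in IRS2 was not detectable at this depth. Whether these values reflect the cells or the transcript reference behind the table cannot be settled from them. As listed, IRS1 was the higher of these docking proteins in every library, and the mean ratio of IRS2 to IRS1 lay between 0.0032 and 0.0039 in the 4 groups.

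The 250 bases before a RefSeq start of each IRS gene (GRCh38.p14, minus strand) are shown because the table lists these paralogs at very different levels, with the same limit for IRS2.
IRS1: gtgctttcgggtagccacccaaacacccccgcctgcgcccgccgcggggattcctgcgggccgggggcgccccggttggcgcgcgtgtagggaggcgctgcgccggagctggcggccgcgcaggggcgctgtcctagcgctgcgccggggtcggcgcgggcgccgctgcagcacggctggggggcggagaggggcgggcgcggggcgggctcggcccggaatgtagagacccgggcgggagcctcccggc
IRS2: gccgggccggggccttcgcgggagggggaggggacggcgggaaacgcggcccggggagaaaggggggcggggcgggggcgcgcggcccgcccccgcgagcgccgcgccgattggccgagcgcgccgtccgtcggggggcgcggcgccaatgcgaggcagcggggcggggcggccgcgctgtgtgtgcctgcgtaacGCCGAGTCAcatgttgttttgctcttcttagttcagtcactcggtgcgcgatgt
The IRS1 stretch is chr2:226799821-226800070 with a GC content of 80.8%, and the IRS2 stretch is chr13:109786584-109786833 with 76.4%. The IRS1 stretch borders the gene span given above. The IRS2 stretch lies inside its gene span, so the start used for IRS2 is internal to that span. Capitals mark the match to the antioxidant response core on the opposite strand, which lies from 54 to 46 bases before this IRS2 start. The match of IRS1 lies after its start, outside the printed bases.

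Downstream of the receptor, 22 genes of the route to AKT were tested, and 9 rose and 6 fell at 144 h, none past the larger call. PIK3CD, a catalytic subunit of phosphoinositide 3-kinase, rose at both times, from 15.2 ± 0.796 to 20.3 ± 0.144 FPKM at 24 h (0.42 on the log2 scale, limma adjusted p = 1.21e-05) and from 13.7 ± 0.0656 to 19.7 ± 0.385 at 144 h (0.52, adjusted p = 1.37e-07). SHC1, an adaptor that leads to the Ras route, rose by 0.50 at 144 h (adjusted p = 2.11e-08). PIK3R1, a regulatory subunit of phosphoinositide 3-kinase, fell from 5.21 ± 0.404 to 3.58 ± 0.146 FPKM (-0.53, adjusted p = 8.42e-06). AKT2, the main AKT kinase of hepatocyte insulin action, had 38.0 ± 0.907 FPKM without and 37.0 ± 1.17 with 144 h of TPN (adjusted p = 0.426).

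Among 22 tested inhibitors of the insulin signal, 8 rose and 7 fell at 144 h. By the larger call 3 rose and 1 fell, where 9.48% of all genes were called. The 3 were TRIB1, SH2B2 and GRB10, the last named after its values were seen, and the 1 was SOCS1. TRIB1, a pseudokinase, rose from 18.2 ± 0.613 to 37.5 ± 0.976 FPKM (log2 fold change 1.04, limma adjusted p = 2.15e-10). SH2B2, an adaptor of the receptor, rose from 0.913 ± 0.235 to 1.44 ± 0.164 (0.62, adjusted p = 0.0136). PTPN1, a phosphatase of the insulin receptor, rose by 0.11 (adjusted p = 0.0225). SOCS1, a relative of SOCS3, fell from 5.00 ± 0.837 to 3.14 ± 0.184 (-0.65, adjusted p = 0.00125).

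SOCS3 (gene 9021, chr17:78356778-78360925) encodes a suppressor of cytokine signaling that STAT3 raises. Its level was 0.66, 0.89 and 0.62 FPKM in untreated and 0.51, 0.69 and 0.58 in exposed libraries at 24 h. After 144 h it was 2.13, 2.23 and 2.93 in untreated and 4.44, 5.16 and 5.49 in exposed libraries. The groups overlapped at 24 h and were apart at 144 h. The log2 fold change was -0.24 at 24 h (95% interval -0.58 to 0.093, limma adjusted p = 0.381) and 1.03 at 144 h (SE 0.155, adjusted p = 9.05e-05), a 2.04-fold rise. The effects differed by 1.27 between the times (SE 0.220, adjusted p = 7.86e-04). In untreated spheroids SOCS3 was 3.07-fold higher at 144 h than at 24 h (adjusted p = 5.13e-07). Its order was TPN 144 h, then untreated 144 h, then both 24 h groups, as for PCK1.

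The 250 bases before a RefSeq start are shown for SOCS3, a known STAT target that passed the larger call at 144 h. The stretch is chr17:78360926-78361175 on the minus strand of GRCh38.p14, with a GC content of 62.8%.
SOCS3: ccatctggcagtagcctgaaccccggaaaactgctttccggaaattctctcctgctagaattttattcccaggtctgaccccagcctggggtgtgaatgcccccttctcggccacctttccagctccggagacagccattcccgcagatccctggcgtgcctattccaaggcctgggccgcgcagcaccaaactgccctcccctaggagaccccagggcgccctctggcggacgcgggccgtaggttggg
The spaced motif TTCNNNGAA has no match in this stretch or in the 50 bases after this start. The search covered only the promoter windows, so a STAT site of SOCS3 outside them would be missed.

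SOCS2 (gene 8835, chr12:93569849-93626236) encodes the suppressor that growth hormone raises through STAT5. Its level was 0.26, 0.29 and 0.28 FPKM in untreated and 0.31, 0.26 and 0.33 in exposed libraries at 24 h. At the later time it was 0.46, 0.64 and 0.29 in untreated and 0.42, 0.48 and 0.54 in exposed libraries. The groups overlapped at both times (exact permutation tests, two-sided, p = 0.5 and p = 0.9), and a TPN difference was not detectable with about 16.8 to 41.2 estimated fragments per library. In the limma model without the minimum level, SOCS2 was called higher over time in untreated spheroids (adjusted p = 0.0385), while the untreated groups of the 2 times overlapped (exact p = 0.2). An antisense gene overlaps SOCS2, and the strand setting of the counting is not given in the sources used here. The mean ratio of SOCS2 to SOCS3 was 0.390 in untreated spheroids at 24 h, 0.518 after 24 h of TPN, 0.201 in untreated spheroids at 144 h and 0.0953 after 144 h of TPN. On the log2 scale this ratio differed between exposed and untreated spheroids by 0.33 at 24 h (exact p = 0.3) and by -0.94 at 144 h (exact p = 0.1).

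In the list of cytokine and growth hormone receptors, JAK and STAT genes, 7 of 23 tested rose and 4 fell at 144 h. GHR, the growth hormone receptor, had at most 0.01 FPKM in any library and was not tested. OSMR, the oncostatin M receptor subunit, rose from 19.9 ± 1.03 to 45.2 ± 1.33 FPKM (log2 fold change 1.18, limma adjusted p = 4.15e-10). STAT3 rose from 21.8 ± 0.474 to 28.3 ± 0.886 (0.37, adjusted p = 1.09e-06). IL22RA1, a subunit of the interleukin-22 receptor, fell from 20.4 ± 0.815 to 16.1 ± 0.241 (-0.34, adjusted p = 8.80e-06).

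Counted together, 0 of the 7 tested members rose and 2 fell at 24 h by limma, FOXO1 and IRS1, where 10.5% of all 11713 genes were called. No member passed the larger call at 24 h, against 0.914% of all genes. At 144 h 5 members rose and 1 fell, where 52.5% of all genes were called, 24.2% higher and 28.3% lower. By the larger call PCK1 and SOCS3 rose and FOXO1 fell, where 9.48% of all genes were called. The median log2 fold change of the 7 members was -0.20 at 24 h and 0.17 at 144 h, against -0.0045 and -0.018 over all genes. Untreated and exposed libraries did not overlap in 4 of the 7 at 24 h and in 6 of the 7 at 144 h, and the background shares were 29.9% and 57.3%.

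The difference between the effects at 144 h and 24 h was called for 4 of the 7 members, upward for PCK1, IRS1 and SOCS3 and downward for FOXO1, where 30.4% of all genes were called. PCK1, IRS1 and SOCS3 also passed the larger call on this difference, where 5.87% of all genes did. For INSR the interval of this difference on the log2 scale ran from -0.064 to 0.21, and for PPARGC1A from -0.39 to 0.036. For FOXO3 the interval ran from 0.0033 to 0.34, with both ends positive. The intervals were not adjusted over genes, and the FOXO3 difference was not called (limma, adjusted p = 0.115).

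**Figure D4:**
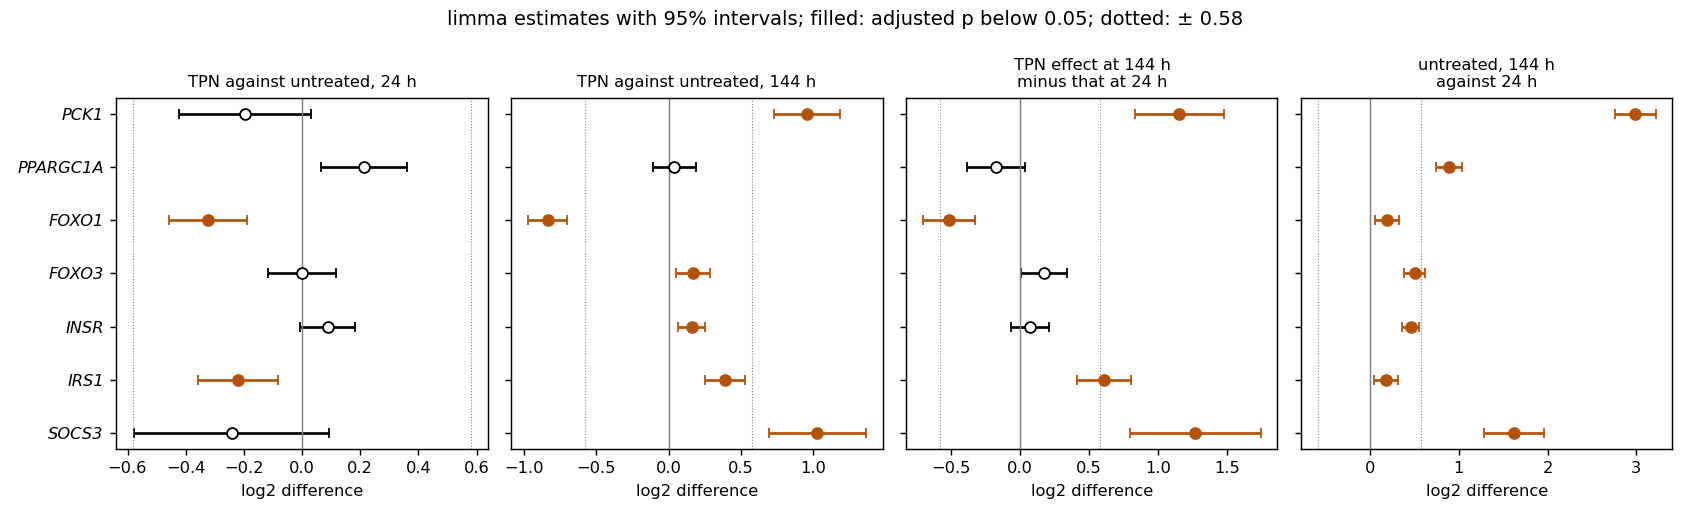
Log2 differences from limma (horizontal axis, a separate scale for each panel) of the 7 tested genes in 4 comparisons. Points are estimates, bars their 95% intervals, filled points have an adjusted p below 0.05, and dotted lines mark ± 0.58. PCK1 and SOCS3 lie to the right and FOXO1 to the left at 144 h, while at 24 h FOXO1 and IRS1 are the filled points.

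In untreated spheroids all 7 tested members rose from 24 h to 144 h, where 72.6% of all genes tested were called, 20.1% higher and 52.4% lower. PCK1, PPARGC1A and SOCS3 passed the larger call, against 19.0% of all genes. The groups did not overlap in 7 of the 7, with a background of 74.9%. The median gene was lower by 0.18 on the log2 scale at 144 h (median -0.18), and of all calls 27.8% were higher. With median-ratio scaling that median was -0.0078 and 49.6% of calls were higher. The 7 members rose under each of the 3 other scalings as well, and with median-ratio scaling their differences ran from 0.36 for IRS1 to 3.16 for PCK1. The call of FOXO1 in this comparison was lost without the second untreated library at 144 h (adjusted p = 0.0562), and that of IRS1 without the first untreated library at 24 h (0.0870) or the third at 144 h (0.0821). The comparison over time shares its untreated libraries with both TPN comparisons, so its values are not independent of them.

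Cell type markers moved along with these comparisons. At 144 h 0 of 9 tested hepatocyte markers rose and 8 fell after TPN by limma, with a median log2 fold change of -0.35, and their summed FPKM was 10317 to 11057 in exposed against 13249 to 14225 in untreated libraries. Of 9 tested stellate or mesenchymal markers 1 rose and 4 fell after TPN at 144 h, and 1 rose and 7 fell over time in untreated spheroids (median -1.82). Their summed FPKM went the other way, from 192 to 198 in untreated libraries at 24 h to between 217 and 228 at 144 h, and it was 237 to 239 after 144 h of TPN. A sum follows mainly the most abundant markers. Of the 10 listed, 1 had a mean below 0.5 FPKM in untreated spheroids at 24 h and 4 did at 144 h. Of 3 tested immune markers 1 rose at 24 h and 1 at 144 h, and of 3 tested cholangiocyte markers 1 fell at each time. At 24 h 4 of the 9 hepatocyte markers fell. The part of these markers in the changes of the 10 genes was not tested.

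The remaining lists had no shared direction at 144 h. Of 18 tested genes of glucose uptake and glycolysis, 5 rose and 6 fell. GCKR passed the larger call at both times, with 9.32 ± 0.686 and 14.2 ± 0.549 FPKM at 24 h and 11.6 ± 0.584 and 21.8 ± 1.63 at 144 h (limma adjusted p = 3.43e-05 and 7.47e-08). HK1, a hexokinase of most tissues, rose from 0.443 ± 0.0651 to 1.06 ± 0.0503 FPKM, and PFKP, a phosphofructokinase, from 7.86 ± 1.2 to 15.2 ± 0.595 (log2 fold changes 1.10 and 0.96, adjusted p = 4.51e-06 and 8.82e-07). SLC2A3, a glucose transporter named after its values were seen, was the gene of this list that fell by the larger call, from 425 ± 1.51 to 238 ± 7.48 FPKM (-0.84, adjusted p = 4.38e-10).

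Of 19 tested genes of mTORC1 and its regulators 6 rose and 6 fell at 144 h. SESN2, an inhibitor of mTORC1 in amino acid shortage, rose by 0.39 on the log2 scale, AKT1S1, an mTORC1 subunit that AKT targets, by 0.32, and PRKAA2, an AMPK subunit, by 0.31 (limma adjusted p = 2.70e-05, 3.74e-05 and 0.00294). Of 21 tested genes of glycogen metabolism 8 rose and 6 fell. PPP1R3B, which brings protein phosphatase to glycogen, rose from 0.817 ± 0.117 to 1.48 ± 0.183 FPKM (0.78, adjusted p = 0.00177). PHKA1, a subunit of phosphorylase kinase, rose by 0.37 and GYG2, the liver glycogenin, fell by 0.50 (adjusted p = 4.87e-04 and 3.53e-06).

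By the KEGG annotation of the deposited table, 30 of 112 tested genes of insulin signaling rose and 39 fell at 144 h, 36 of 101 genes of FoxO signaling rose and 31 fell, and 30 of 88 genes of insulin resistance rose and 33 fell, where 24.2% of all genes rose and 28.3% fell. In glycolysis and gluconeogenesis 14 of 48 rose and 20 fell, and in JAK-STAT signaling 30 of 86 rose and 21 fell. These maps hold members, 6 of them in insulin signaling, 5 in FoxO signaling, 6 in insulin resistance and 1 each in the other two.

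**Figure D5:**
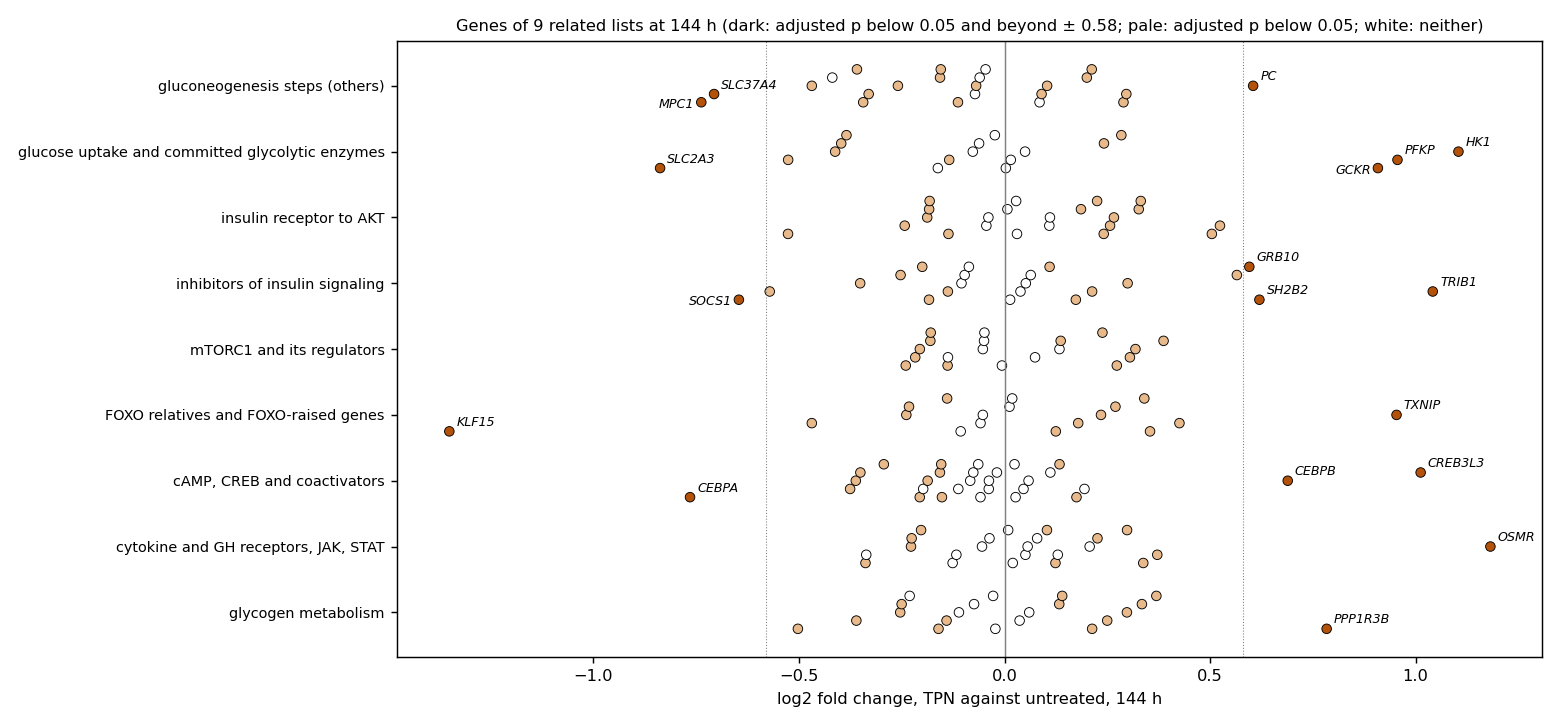
Log2 fold change of TPN against untreated spheroids at 144 h (horizontal axis) for the tested genes of 9 lists (rows), each point a gene. Dark points passed the larger call and carry their symbols, pale points had an adjusted p below 0.05, and white points neither. Every row has points on both sides of 0, and the dark points include TRIB1 at 1.04 and KLF15 at -1.35.

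For the 3 members that passed the larger call at 144 h, the genes of closest pattern were sought among the 8337 genes whose mean reached 5 FPKM, by Pearson's r of log2(FPKM + 0.1) over the 12 libraries. PCK1 was followed by HSPA5 (r = 0.998), CP (0.997) and RNASET2 (0.996). FOXO1 was followed by BCAM (0.981), IL1RN (0.980) and SCN1A (0.974). SOCS3 was followed by CLIP2 (0.997), SHB (0.989) and GPX3 (0.989). Over the same libraries PCK1 had r = 0.978 with SOCS3, 0.978 with FOXO3, 0.972 with INSR, 0.954 with PPARGC1A, 0.896 with IRS1 and -0.26 with FOXO1. The 12 points share 4 groups and 2 times, so these are descriptions of the group pattern.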

How the data were processed

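RNA from 12 libraries was sequenced on the DNBSEQ platform. The authors filtered and mapped the reads, calculated FPKM with RSEM and deposited these FPKM values to 2 decimals, 1 column per library, with replicates not pooled. The submitters' processing notes name HISAT2 2.0.4, Bowtie2 2.2.5 and the build GRCh38.p13. The study's own test needs read counts, so limma was used here on FPKM.

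The members and lists were chosen with earlier results of these data known. Genes with a mean of at least 0.5 FPKM entered the model on the scale log2(FPKM + 0.1), fitted by limma 3.58.1 under R 4.3.3 (4 group means, eBayes with an intensity trend) and Benjamini-Hochberg adjustment. Members under that mean and ratios were compared by exact permutation tests (scipy 1.17.1). From each list, the 3 called genes with the largest change at 144 h, any gene passing the larger call at 24 h and fixed partners were named, as were the 3 genes of closest pattern for each member passing the larger call. A fixed partner is not reported here. Depth was estimated from FPKM steps in 33 short genes with GENCODE 44 lengths (95% interval 1.81e+07 to 1.88e+07), and fragment numbers depend on those lengths. Promoters are from RefSeq. Alternatives changed pseudocount, filter, scaling, trend, replicate block and the libraries fitted. Python 3.11.15, numpy 2.4.6, pandas 2.3.3 and matplotlib 3.10.9 made tables and figures.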

Additional observations from a re-analysis of the deposited data

Results flagged for a closer look

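For 4 of the 10 genes the limma test of the difference itself set the TPN effect at 144 h apart from that at 24 h. On the log2 scale the effect at 144 h minus that at 24 h was 1.15 for PCK1, 0.61 for IRS1, 1.27 for SOCS3 and -0.51 for FOXO1. PCK1 and SOCS3 had no called effect at 24 h and rose at 144 h, and FOXO1 fell at both times. IRS1 rose at 144 h, and its call as lower at 24 h was lost in 10 of 22 alternatives.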

How the results depend on the processing

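PCK1, FOXO1, IRS1 and SOCS3 kept direction and call at 144 h, and in the difference between times, under every alternative that tested them. SOCS3 was not tested at a mean FPKM of at least 5. The 2 members called at 24 h became 1 with no filter and 1 with only the 2 groups fitted, and ranged from 1 to 2 with a library left out. The 3 members passing the larger call over time became 5 with median-ratio scaling and 5 with quantile normalization. With a pseudocount of 1, the log2 ratio of PCK1 to PCK2 differed by 1.24 at 144 h (1.30 with 0.1) and by 2.51 over time (3.13), and that of FOXO3 to FOXO1 by 0.87 at 144 h (1.01). FOXO3 at 24 h turned to -0.0086 with equal FPKM sums and ranged from -0.043 to 0.053 with a library left out, and PPARGC1A at 144 h ranged from -0.014 to 0.094. Of all genes, the larger call held 107 at 24 h, 1110 at 144 h, 687 for the difference and 2230 over time, against 58, 698 and 435 for the first 3 with a pseudocount of 1 and 59, 523, 282 and 1337 at a mean FPKM of at least 5. The cause was not tested.

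Same-numbered libraries deviated together with correlations from -0.083 to 0.10, so the numbers were not taken to pair them. With a replicate block the 24 h count stayed at 2, IRS1 missing it (adjusted p = 0.0501) and PPARGC1A passing it (0.0461).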
